A study of Rattus norvegicus with 9 samples.

Results

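The contractile genes of mural cells encode the actin filaments, the myosin subunits and the regulators with which pericytes and vascular smooth muscle cells, the cells that wrap blood vessels, shorten and hold tension. The list held 10 gene symbols, and 8 of them had a transcript cluster annotated with that symbol alone on the array used: Tagln, Myl9, Myl12a, Cald1, Tpm1, Tpm2, Ppp1r14a and Pdlim5. A transcript cluster is the set of probes that stands for a gene. The levels of Acta2 and Cnn1 were not analysed here. The 8 clusters are 8 of 36685 on the array, of which 18511 carried a single symbol. All 8 had a mean log2 intensity above the median of all clusters (6.65) and so were among the 18343 clusters tested. The list was chosen by measured values: several of its genes were far lower in replicate 1 of every group. The replicate values below are therefore a description and carry no test.

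The 9 arrays came from retinal ganglion cells, the neurons whose axons form the optic nerve, of Sprague Dawley rats taken at postnatal day 4. The 3 groups of cells were electroporated with a different construct each, and all of them also received pMAX-GFP, a plasmid for green fluorescent protein. The groups were wt_Set, with wild-type Set-β (3 arrays), myr_Set, with myr-Set-β (3 arrays), and mCherry, a red fluorescent protein (3 arrays). Set-β is a form of the nuclear protein SET, an inhibitor of protein phosphatase 2A, and a myristoyl group is a lipid that anchors proteins to membranes. Cells had been enriched with antibodies on dishes, sorted for green fluorescence the day after electroporation and lysed 3 days after it, so the arrays hold transfected cells that passed the sort. The labels name no promoter for the constructs. The titles call the arrays biological replicates, and no label names separate litters or cultures, so p-values reflect array-to-array spread alone, and that spread may be technical.

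In smooth muscle, phosphorylation of the myosin regulatory light chain lets myosin pull on actin filaments, and myosin phosphatase reverses it. Tropomyosin, caldesmon, calponin and transgelin lie along the actin filament and set its access to myosin. Many of these genes are switched on together by serum response factor (SRF) with myocardin or the myocardin-related factors, which bind at a DNA element called the CArG box, and in mural cells by TEAD factors, which bind CATTCC.

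Promoter sequence was looked up in RefSeq (assembly GRCr8), which held windows of 300 bases (250 before the start and 50 after it) for 6 of the 8 measured genes and 7 starts. Exact CArG boxes, searched by name on both strands, lay in 0 of the 7 windows and in 1.64% of all 33469 windows. A looser form with 1 G or C among its 6 inner bases lay in 0 of the 7 and in 8.1% of all. CATTCC, or GGAATG on the other strand, lay in 2 of the 7 and in 14.2% of all. These were 1 window of Cald1, where the match began 195 bases before the start, and that of Tpm1, where it began 31 bases before it. The windows of Cald1 and Tpm1 are shown because they held a match, and that of Acta2, the smooth muscle actin, because it shows what the elements look like side by side. Acta2 had matches to the looser CArG form 134 and 84 bases before the start and a CATTCC match 196 bases before it. The matches shown do not overlap each other. Capitals mark the matches in the 250 bases before the start, written 5′ to 3′ on the gene's strand. A match is a run of letters and not a measured binding site, and no match says only that these letters are not in this window.

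Cald1 promoter, chr4:64233006-64233255, plus strand: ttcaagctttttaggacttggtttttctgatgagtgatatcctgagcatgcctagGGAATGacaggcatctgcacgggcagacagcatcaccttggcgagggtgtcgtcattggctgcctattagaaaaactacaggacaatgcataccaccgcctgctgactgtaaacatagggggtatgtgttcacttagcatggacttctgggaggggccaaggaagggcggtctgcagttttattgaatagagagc
Tpm1 promoter, chr8:76543416-76543665, minus strand: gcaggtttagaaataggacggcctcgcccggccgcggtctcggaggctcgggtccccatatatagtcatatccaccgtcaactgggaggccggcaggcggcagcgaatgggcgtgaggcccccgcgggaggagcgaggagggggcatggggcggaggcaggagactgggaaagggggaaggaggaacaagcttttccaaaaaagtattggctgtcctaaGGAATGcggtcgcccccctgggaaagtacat
Acta2 promoter, chr1:241172504-241172753, minus strand: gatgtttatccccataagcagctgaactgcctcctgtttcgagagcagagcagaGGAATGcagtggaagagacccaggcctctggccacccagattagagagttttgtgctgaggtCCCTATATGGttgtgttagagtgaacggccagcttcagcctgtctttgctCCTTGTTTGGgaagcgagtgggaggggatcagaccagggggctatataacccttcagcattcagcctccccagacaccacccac

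Values are log2 intensities. The authors scaled each array to a median of 100 on the linear scale, and the distance between the 10th and the 90th percentile of log2 intensity still ran from 3.82 in myr_Set replicate 1 to 4.54 in mCherry replicate 1. Ganglion cell markers were present: all 15 listed had a cluster above the level filter, and their summed intensity ran from 7600 to 19921 over the 9 arrays. Intensities of different clusters also depend on their probes, so no gene's level is set against another's.

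Tagln encodes transgelin, an actin-binding protein of the calponin family and an early marker of smooth muscle. Its log2 intensity in replicates 1, 2 and 3 was 7.34, 11.89 and 11.89 in wt_Set, 6.70, 12.01 and 12.59 in myr_Set, and 7.93, 12.40 and 12.62 in mCherry. Replicate 1 was the low array in each group, and the highest replicate 1 value lay below every value of replicates 2 and 3. On the linear scale replicate 1 was 23.4-fold below the geometric mean of the other 2 arrays in wt_Set, 48.6-fold in myr_Set and 23.9-fold in mCherry. Replicate 1 minus the mean of replicates 2 and 3, -4.55 in wt_Set and -5.60 in myr_Set on the log2 scale, was the widest gap of the list in both.

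Myl9 and Myl12a encode regulatory light chains of myosin II, the subunits whose phosphorylation starts contraction. Myl9, the form typical of smooth muscle, had 6.97, 10.98 and 11.27 in wt_Set, 6.41, 11.17 and 11.66 in myr_Set, and 7.51, 11.51 and 11.80 in mCherry. Myl12a, a form found in many cells outside muscle, had 7.18, 10.57 and 11.27 in wt_Set, 6.99, 10.72 and 11.31 in myr_Set, and 7.73, 10.95 and 11.53 in mCherry. For both genes the 3 replicate 1 arrays lay apart below the other 6. The fold gap was 17.8, 32.2 and 17.7 for Myl9 and 13.4, 16.2 and 11.4 for Myl12a in wt_Set, myr_Set and mCherry. Myl12a neighbours Myl12b in RefSeq's gene order, and the light chains they encode are closely alike. The probe sequences were not used here, and how well the clusters separate these genes was not tested.

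Cald1 encodes caldesmon, which holds back the interaction of actin with myosin until calcium signals release it. It had 7.10, 10.69 and 10.64 in wt_Set, 6.86, 11.01 and 11.40 in myr_Set, and 7.48, 11.25 and 11.55 in mCherry. Replicate 1 was again low in each group, by 11.8-fold in wt_Set, 20.2-fold in myr_Set and 15.2-fold in mCherry.

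Tpm1 and Tpm2 encode tropomyosins, the coiled-coil proteins that run along actin filaments. Tpm1 had 8.15, 10.20 and 10.12 in wt_Set, 7.36, 10.23 and 10.92 in myr_Set, and 9.03, 10.61 and 10.96 in mCherry. Tpm2 had 7.50, 11.16 and 11.07 in wt_Set, 6.91, 11.53 and 11.74 in myr_Set, and 8.39, 11.57 and 11.73 in mCherry. Tpm1, which is also made in many other cell types, had the narrowest separation of the 8 genes: 1.09 log2 units lay between its highest replicate 1 value and the lowest value of the other 6 arrays. Its replicate 1 arrays were 4.02-fold lower in wt_Set, 9.32-fold in myr_Set and 3.36-fold in mCherry, against 12.2-fold, 26.4-fold and 9.55-fold for Tpm2.

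Ppp1r14a encodes CPI-17, an inhibitor of myosin phosphatase that sustains contraction. It had 5.99, 10.16 and 10.47 in wt_Set, 5.86, 10.33 and 11.19 in myr_Set, and 5.90, 10.57 and 11.21 in mCherry. The 3 replicate 1 values lay between 5.86 and 5.99, below the median of all clusters, and the separation from the other 6 arrays, 4.17 log2 units, was the widest of the list. Replicate 1 was 20.1-fold lower in wt_Set, 29.9-fold in myr_Set and 31.8-fold in mCherry.

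Pdlim5 encodes a PDZ and LIM domain protein that tethers signalling kinases to actin structures. It had 7.37, 10.22 and 10.69 in wt_Set, 8.0, 10.47 and 10.91 in myr_Set, and 7.74, 10.73 and 11.16 in mCherry. Its gap was the narrowest of the list in myr_Set, 6.45-fold, against 8.49-fold in wt_Set and 9.23-fold in mCherry. Among the replicate 1 arrays the lowest was that of wt_Set for Pdlim5 and that of myr_Set for the other 7 genes.

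**Figure D1:**
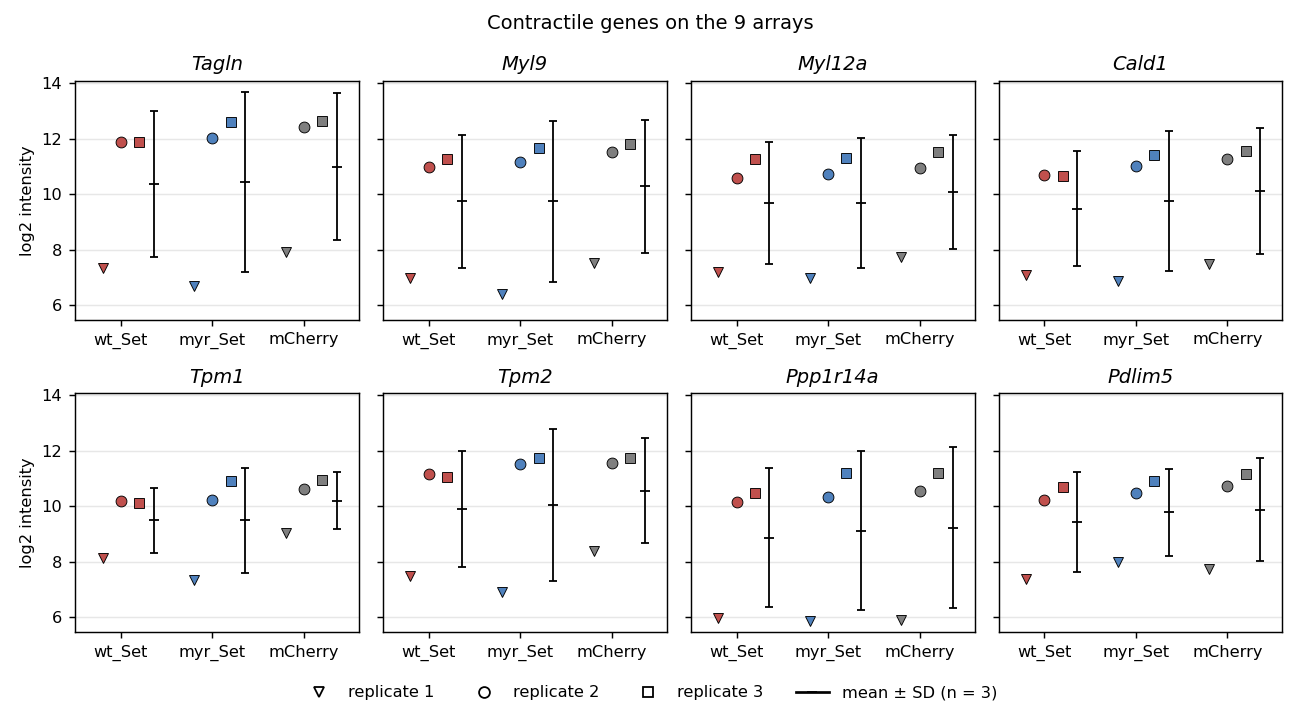
Log2 intensity of the 8 contractile genes on each array, by group (wt_Set, myr_Set and mCherry) and replicate number, with the mean ± SD of each group (n = 3) beside the points. In every gene the 3 replicate 1 arrays sit below the 6 others, by 1.09 log2 units or more, and replicates 2 and 3 sit close together.

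All 8 genes were lowest in replicate 1 in each of the 3 groups, a pattern shared by 1345 of the 18343 clusters tested (7.33%). For 7 of the 8 replicate 1 lay at least 2 log2 units below the mean of replicates 2 and 3 in every group (0.311% of all clusters), and for 6 of the 8 at least 3 units (0.136%). Nothing is read from these shares, since this pattern chose the list. The median gap was -3.67 in wt_Set, -4.53 in myr_Set and -3.72 in mCherry, where the median of all clusters tested was 0.03, -0.20 and 0.08. Other scalings of the arrays gave -3.73, -4.38 and -3.74 (quantile) and -3.76, -3.63 and -3.85 (cyclic loess). Between replicates 3 and 2 the genes lay much closer: the median difference, replicate 3 minus replicate 2, was 0.15 in wt_Set, 0.53 in myr_Set and 0.33 in mCherry, and 0 of the 8 were lower in replicate 3 in myr_Set or mCherry, against 4 in wt_Set. In bulk RNA, fewer contractile cells in a sample and less contractile RNA in each cell cannot be told apart.

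Over the 6 arrays of replicates 2 and 3 the genes ran together. Among the 28 pairs of genes, Pearson's r across these arrays had a median of 0.89 and ran from 0.42 for Myl12a with Tpm2 to 0.99 for Tagln with Tpm1. Myl12a took part in the 4 lowest values. These points share 6 arrays, their scaling and their signal range, and the correlations describe them only.

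Relatives of the 8 genes, from the same protein families, did not all share the gap. Of 18 listed, 13 had a cluster of their own and 12 passed the level filter, of which 6 were lowest in replicate 1 in all groups. Among all clusters tested 7.33% were, which is the background for this count and for those of the lists below. Tagln2, the transgelin of many non-muscle cells, had replicate 1 minus the mean of the other arrays at -1.15 in wt_Set, -2.58 in myr_Set and -0.92 in mCherry. Tagln3, the neuronal transgelin, had 0.30, -0.29 and 0.58 in the same order of groups, where Tagln had -4.55, -5.60 and -4.58. Tpm4 had -0.81, -1.98 and -0.91, and Tpm3 had -0.07, -1.27 and 0.07. Myl12b, beside Myl12a in the genome, had 0.00, -1.10 and -0.28, against -3.74, -4.02 and -3.51 for Myl12a. Actb, the cytoplasmic actin of all cells, had -0.62, -1.76 and -0.57. Pdlim1, a further PDZ and LIM protein, had gaps of the size of the listed genes, with -3.04, -2.68 and -4.12, whereas Pdlim2 had -0.09, 0.38 and -0.32. Ppp1r14b, a phosphatase inhibitor found outside muscle, had 0.06, -0.75 and -0.75. In Tagln2, Tpm4, Tpm3, Myl12b and Actb the gap was wider in myr_Set than in wt_Set and mCherry, but not in Pdlim1 or Pdlim2. The median of all clusters tested was also lowest in myr_Set, at -0.20, against 0.03 in wt_Set and 0.08 in mCherry. The replicate 1 array of myr_Set also had the narrowest signal range of all 9, and its part in these values was not tested.

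Of 17 other contractile genes of smooth muscle, 14 passed the filter and 10 of the 14 were lowest in replicate 1 in all groups, with a median gap of -0.73 in wt_Set, -0.78 in myr_Set and -1.23 in mCherry. Actg2, the enteric smooth muscle actin, had -3.24, -3.24 and -4.36, and Csrp1, an actin-bundling LIM protein, had -2.82, -4.04 and -3.26. Myh11, the smooth muscle myosin heavy chain that marks fully contractile cells, had smaller gaps of -1.03, -0.66 and -1.51. Smtn, or smoothelin, another late marker, had -0.19, -0.33 and -0.18. The list's gaps thus ranged from near 0 to those of the 8 genes.

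Of the transcription factors above these genes, Srf and Myocd had small gaps. The gaps of the myocardin-related factors and of Elk1 are not given here, and TEAD factors were on no list. Srf itself had -0.59, -0.45 and -0.53 in wt_Set, myr_Set and mCherry, and Myocd, which encodes myocardin, had -0.18, -0.06 and -0.17. Among 13 listed SRF targets outside muscle, 11 passed the filter and 8 were lowest in replicate 1 in all groups. The median gap of the 11 was -1.68 in wt_Set, -1.96 in myr_Set and -1.46 in mCherry. Ccn1 and Ccn2, secreted matrix proteins that SRF and TEAD factors both control, had wider gaps. These were -3.03, -3.58 and -4.37 for Ccn1 and -3.07, -3.15 and -4.24 for Ccn2, in the same order of groups. TGF-beta, a signal that raises contractile genes in mural cells, has 16 listed pathway genes, of which 13 passed the filter and 4 were lowest in replicate 1 in all groups. The median gap of the 13 was -0.10, -0.50 and -0.19. The ligand genes Tgfb3, with -3.93, -3.88 and -3.85, and Tgfb2, with -2.59, -2.41 and -2.36, had wide gaps, while the ligand gene Tgfb1 had -0.60, -1.0 and -0.93 and the receptor gene Tgfbr1 had 0.01, -0.66 and 0.18.

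Surface and lineage markers of mural cells passed the level filter in part. Of 18, 10 passed and 8 of the 10 were lowest in replicate 1 in all groups, against 7.33% of all clusters. The median gap of the 10 was -0.70 in wt_Set, -0.56 in myr_Set and -1.13 in mCherry, against -3.67, -4.53 and -3.72 for the 8 contractile genes. Pdgfrb, the receptor through which vessels recruit pericytes, had -1.28, -1.64 and -2.13, Cspg4, or NG2, had -0.96, -0.70 and -1.66, and Rgs5, a pericyte marker, had -0.38, -0.15 and -1.01. Kcnj8, Vtn, Ndufa4l2, Higd1b, Heyl, Art3, Foxc1 and Tbx18 did not pass the level filter. The gaps of the other mural markers past the filter are not given here. Passing the filter describes a level and does not show that mural cells were in the samples. The label of the list is thus borne out only in part, and the contractile genes are also made by myofibroblasts and other cells.

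Markers of other cell types that the sort could hold moved with the same arrays to different degrees. The sums below take every listed gene with a cluster of its own, also those that did not pass the level filter. These were 15 fibroblast and matrix, 10 glial, 12 endothelial, 12 microglia and macrophage, 18 mural identity and 15 ganglion cell genes. For the fibroblast and matrix list, 10 of 16 genes passed the filter, and its summed intensity ran from 1770 to 2129 on the replicate 1 arrays and from 7096 to 14295 on the others. Thy1, among these 10, is also on the ganglion cell list and counts in both. The fibroblast markers Dcn, Lum and Pdgfra did not pass, while Sparc, Fn1 and Bgn, matrix genes of many stromal cells, did. These had gaps of -4.66, -5.15 and -5.23 for Sparc, -3.66, -3.88 and -3.78 for Fn1, and -4.45, -4.25 and -3.93 for Bgn. The median gap of the 10 genes past the filter was smaller, at -1.57, -1.29 and -1.75, and 8 of the 10 were lowest in replicate 1 in all groups. A sum weighs its most intense genes most, and no sum was taken without Sparc, Fn1 and Bgn. For astrocytes and Müller glia 4 of 12 passed, and the sums were 1301 to 1708 and 3374 to 5720. Vim, an intermediate filament gene of glia and of mesenchymal cells, ran from 7.84 to 8.60 on the replicate 1 arrays and from 11.15 to 12.13 on the others, while Gfap, Slc1a3 and Rlbp1 did not pass. Without Vim the sums of this list overlapped, from 1073 to 1320 on the replicate 1 arrays and from 924 to 1234 on the others. Endothelial markers gave 5 of 16, with sums of 1284 to 1377 and 1452 to 1841, and Cldn5 and Vwf did not pass. Of these 5, 2 were lowest and 1 was highest in replicate 1 in all groups, with median gaps of 0.01, -0.93 and -0.67. Microglia and macrophage markers gave 8 of 12, with sums of 1415 to 1690 and 1841 to 2282. Of these 8, 3 were lowest in replicate 1 in all groups, and the median gaps were small, at -0.22, -0.05 and -0.42. The mural identity markers ran from 1718 to 2082 on the replicate 1 arrays and from 2549 to 4252 on the others. Ganglion cell markers overlapped, with 7908 to 19921 and 7600 to 14575, and 0 of the 15 were lowest in replicate 1 in all groups. With 7.33% of all clusters lowest, a list of 15 genes could hold none without differing from the rest. No marker was at 0, since array intensities carry background. The part of any of these cell types in the contractile values was not tested.

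**Figure D2:**
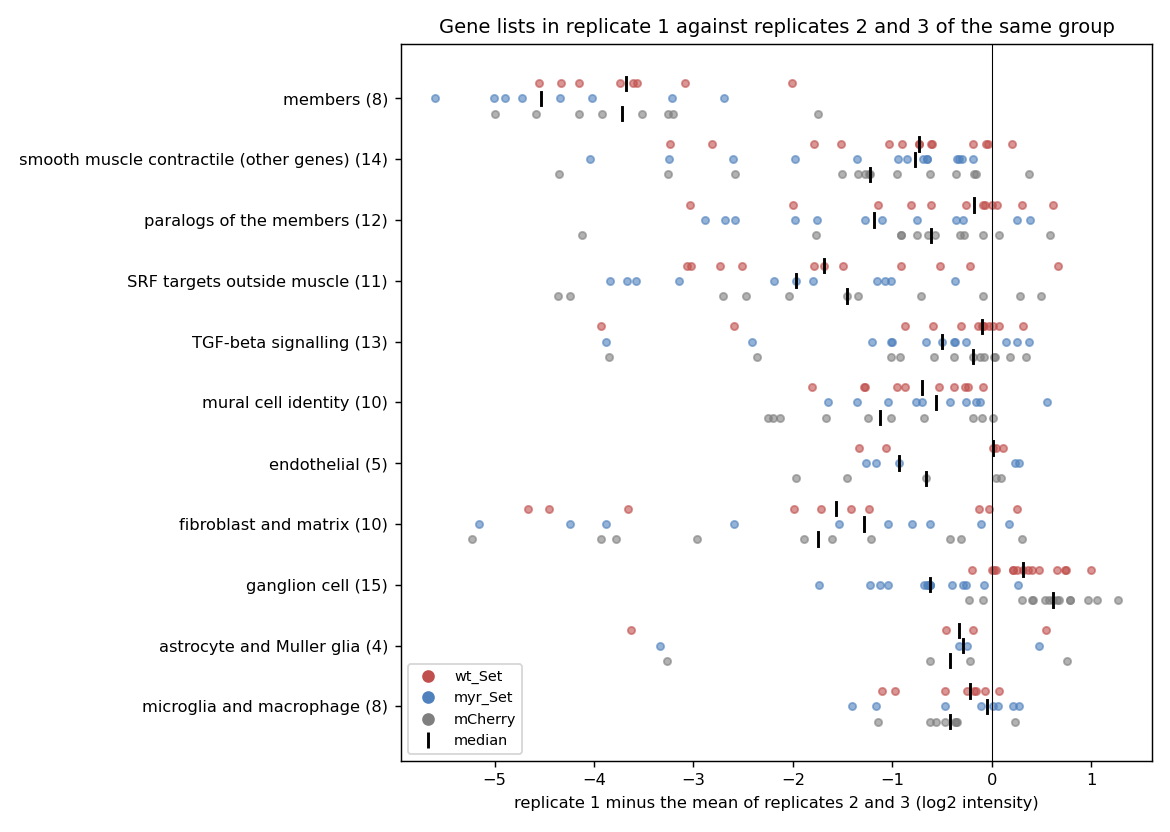
Replicate 1 minus the mean of replicates 2 and 3 (log2 intensity) for each gene of the contractile list and of 10 other lists, with the number of genes past the level filter in brackets, one row of points each for wt_Set, myr_Set and mCherry, and the median as a bar. The contractile list has medians of -3.67, -4.53 and -3.72, and the ganglion cell list has 0.32, -0.62 and 0.62.

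The 10 single-symbol clusters most like the mean of the 8 genes, by Pearson's r over the 9 arrays among 10706 ranked, were Sparc, Epas1, Tgfb3, Bgn, Fn1, Serpinh1, Nid1, Lox, Vim and Flna, with r from 0.989 to 0.996. This r rests on the separation of the replicate 1 arrays. Over the other 6 arrays r ran from 0.793 for Lox to 0.997 for Serpinh1, a chaperone of collagen. Sparc, a matrix protein, headed the ranking: it had 7.12, 11.67 and 11.89 in wt_Set, 7.01, 11.80 and 12.54 in myr_Set, and 7.17, 12.12 and 12.68 in mCherry, with an r of 0.992 over the 6 arrays. Epas1, a hypoxia-inducible factor abundant in vessel cells, had 5.89, 9.35 and 9.83 in wt_Set, 5.69, 9.64 and 10.31 in myr_Set, and 7.00, 10.05 and 10.60 in mCherry. Of the 10, 8 were also among the 10 most alike after quantile normalization.

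The first comparison asks how wild-type Set-β bears on these genes. With all 9 arrays in 1 limma fit, 0 of the 8 passed an adjusted p of 0.05, as did 0 of all 18343 clusters, of which 1865 (10.2%) had an unadjusted p under 0.05 and 1308 (7.13%) were lower in wt_Set. The differences ran from -0.71 to -0.35, all 8 below 0, with a median of -0.57, where the median of all clusters was -0.18 and 65.5% of them were below 0. Relative to that shift the median of the 8 genes was -0.39. With quantile normalization 8 of 8 were below 0 with a median of -0.32, and with cyclic loess 7 of 8 with a median of -0.20 and Ppp1r14a at 0.017, while the median of all clusters was -0.03 in both. Tagln averaged 10.37 ± 2.63 in wt_Set and 10.98 ± 2.65 in mCherry (SD, n = 3 each), a difference of -0.61 ± 1.93 (SE) with a 95% interval from -4.98 to 3.76 (limma adjusted p = 0.861). Tpm1 averaged 9.49 ± 1.16 in wt_Set and 10.20 ± 1.02 in mCherry, a difference of -0.71 ± 0.96 with an interval from -2.89 to 1.47 (limma adjusted p = 0.671), the lowest adjusted p of the list. Standard errors ran from 0.96 to 1.93, and no difference was larger than the spread between the arrays of a group, which holds the gap of replicate 1. With the replicate number as a block, which takes up that gap, standard errors ran from 0.18 to 0.34 in each comparison. The differences stayed the same, and 0 of the 8 genes passed an adjusted p of 0.05 in limma. Leaving out 1 array leaves the replicate 1 arrays with unequal weight in the groups compared, in genes chosen for a low replicate 1, so the median then moves by construction. It was 0.71 without wt_Set replicate 1 and -1.11 and -1.20 without wt_Set replicates 2 and 3, and it was -1.83, 0.01 and 0.20 without mCherry replicates 1, 2 and 3.

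Leaving out replicate 1 of all 3 groups kept 6 arrays, and standard errors then ran from 0.19 to 0.36. The fit without them still called 0 of the 8 genes and 0 of all clusters at an adjusted p of 0.05 in limma, where 1718 clusters (9.37%) had an unadjusted p under 0.05. The differences of the 8 genes ran from -0.74 to -0.32 with a median of -0.56, beside -0.15 for all clusters, 66.2% of which were below 0. Cald1 had 10.69 and 10.64 in wt_Set and 11.25 and 11.55 in mCherry in replicates 2 and 3, a difference of -0.74 ± 0.23 with an interval from -1.28 to -0.19 (limma unadjusted p = 0.0161, adjusted p = 0.510). Tagln differed by -0.62 ± 0.25 (limma unadjusted p = 0.0447, adjusted p = 0.510) and Tpm2 by -0.54 ± 0.19 (limma unadjusted p = 0.0306, adjusted p = 0.510). These 3 of the 8 had an unadjusted p under 0.05 and were lower, against 7.09% of all clusters, and none passed the adjusted threshold. After quantile normalization the count was 1 of the 8, Cald1 (4.19% of all clusters), and after cyclic loess 0 of the 8 (3.73%). For 7 of the 8, all but Myl12a, both wt_Set arrays lay below both mCherry arrays, against 39.6% of all clusters. After quantile normalization this order held for 4 of the 8 (24.1% of all clusters) with a median difference of -0.26, and after cyclic loess for 4 of the 8 (24%) with a median of -0.18, where the medians of all clusters were -0.02 and -0.01. Both counts thus depended on the scaling.

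For myr_Set against mCherry, which uses the same mCherry arrays, 0 of the 8 genes and 0 of the 18343 clusters passed an adjusted p of 0.05 in limma, and 1796 clusters (9.79%) had an unadjusted p under 0.05. With array weights, whose estimation stopped before it converged, 5903 clusters but 0 of the 8 genes passed the adjusted threshold. The 8 differences ran from -0.70 to -0.08, all below 0, with a median of -0.45, where all clusters had a median of -0.16 and 63.9% lay below 0. With quantile normalization 7 of 8 were below 0, and with cyclic loess 4 of 8. Tagln averaged 10.43 ± 3.25 in myr_Set and 10.98 ± 2.65 in mCherry (SD, n = 3 each), a difference of -0.55 ± 1.93 with an interval from -4.92 to 3.82 (limma adjusted p = 0.887). Ppp1r14a averaged 9.13 ± 2.86 in myr_Set and 9.23 ± 2.90 in mCherry, a difference of -0.10 ± 1.86 with an interval from -4.33 to 4.13. No difference exceeded the spread between the arrays of a group, the gap of replicate 1 included. With 1 array left out, and the same inequality, the median difference was 1.09 without myr_Set replicate 1 and -1.01 and -1.28 without myr_Set replicates 2 and 3, and -1.62, 0.12 and 0.30 without mCherry replicates 1, 2 and 3. Without replicate 1 of all groups the differences shrank to between -0.26 and -0.02 with a median of -0.21, beside -0.05 for all clusters, 59.9% of which were below 0. In limma 0 of the 8 had an unadjusted p under 0.05, and 494 clusters (2.69%) did. Their 95% intervals on these 6 arrays reached from -1.08 at the lowest to 0.75 at the highest. In 0 of the 8 did both myr_Set arrays of replicates 2 and 3 lie below both mCherry arrays, against 13.1% of all clusters, and after cyclic loess this was 2 of the 8 (13.8%).

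**Figure D3:**
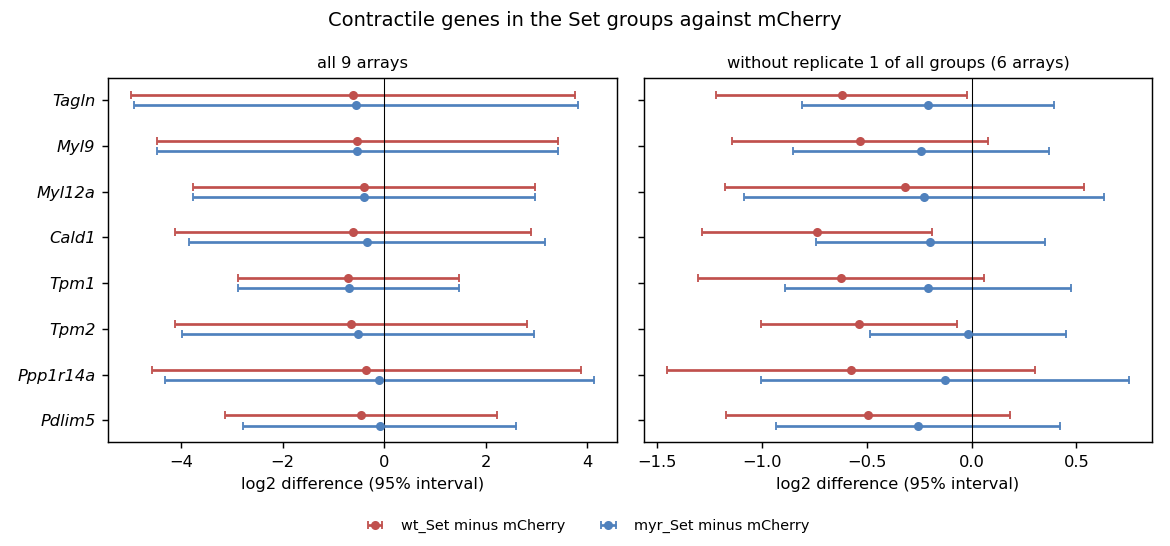
Log2 difference from mCherry, with its 95% interval, of each contractile gene in wt_Set and myr_Set, from the fit of all 9 arrays (left) and from the 6 arrays without replicate 1 (right, on a narrower axis). Every interval of the left panel spans 0, and on the right those of Tagln, Cald1 and Tpm2 in wt_Set do not, before adjustment for the clusters tested.

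Between the forms of Set, myr_Set minus wt_Set, the 8 differences ran from -0.00 to 0.37 with a median of 0.10, and the median of all clusters was 0.01. Of the 8, 7 were above 0, as were 51.5% of all clusters. Pdlim5 averaged 9.80 ± 1.57 in myr_Set and 9.42 ± 1.80 in wt_Set (SD, n = 3 each), a difference of 0.37 ± 1.18 with an interval from -2.32 to 3.06 (limma adjusted p = 0.9998), and was the largest. None of the 8 and 0 of all clusters passed an adjusted p of 0.05, and 208 clusters (1.13%) had an unadjusted p under 0.05, where array weights gave 1270 clusters past the adjusted threshold and 0 of the 8. With 1 array left out, and the same inequality, the median was 1.70 without myr_Set replicate 1 and -0.44 and -0.74 without myr_Set replicates 2 and 3, and it was -1.12, 0.77 and 0.81 without wt_Set replicates 1, 2 and 3. On the 6 arrays without replicate 1 all 8 genes were higher in myr_Set, with a median of 0.41, where all clusters had a median of 0.10 and 64.5% lay above 0. Tpm2 differed by 0.52 ± 0.19 (limma unadjusted p = 0.0347, adjusted p = 0.870) and Cald1 by 0.54 ± 0.23 (limma unadjusted p = 0.0522, adjusted p = 0.870). An unadjusted p under 0.05 with a higher value in myr_Set was found for 1 of the 8, against 2.83% of all clusters, and 807 clusters (4.4%) had such a p in either direction. With quantile normalization the count was 0 of the 8 (2.5% of all clusters), the median was 0.21 and Myl12a lay below 0. With cyclic loess the count was 0 of the 8 (2.07%), the median was 0.18 and Myl12a and Pdlim5 lay below 0.

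The genes around the contractile list gave the same counts of calls: 0 genes of each list described here passed an adjusted p of 0.05 in any of the 3 comparisons in limma. As background for the counts below, 65.5% of all clusters were lower in wt_Set than in mCherry, with a median of -0.18. In wt_Set against mCherry the other smooth muscle genes had a median of -0.34, with 12 of 14 lower, and the smallest unadjusted p values were those of Fhl1, a LIM protein of muscle, at -0.83 ± 0.22 (limma unadjusted p = 0.00467, adjusted p = 0.447), and Ppp1cb, the catalytic subunit of myosin phosphatase, at -0.75 ± 0.30 (limma adjusted p = 0.447). Among the relatives of the 8 genes, 10 of 12 were lower with a median of -0.44, led by Ppp1r14b at -0.93 ± 0.38 and Tagln2 at -1.42 ± 0.71. Mrtfa, the myocardin-related factor that carries actin signals to SRF, had -0.57 ± 0.30. SRF targets outside muscle had 11 of 11 lower with a median of -0.57, where Fos had -0.38 ± 0.19 and Tes had -0.58 ± 0.31. TGF-beta genes had 11 of 13 lower and a median of -0.24. Mural identity genes had 7 of 10 lower and a median of -0.08, with Notch3, a receptor that maintains mural cells, at 0.27 ± 0.19. The ganglion cell list had 15 of 15 lower and a median of -0.51, beside -0.57 for the contractile list. Without replicate 1 of all groups these medians lay further apart, at -0.32, with 14 of 15 lower, and -0.56. The other smooth muscle genes, the relatives and the SRF targets outside muscle then had -0.52, -0.50 and -0.58. TGF-beta genes had -0.24 and mural identity genes -0.16, beside -0.15 for all clusters.

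In myr_Set against mCherry 63.9% of all clusters were lower, with a median of -0.16. The other smooth muscle genes had a median of -0.08, with 8 of 14 lower, and the relatives had -0.38, with 9 of 12 lower. SRF targets outside muscle had -0.50, with 10 of 11 lower. Elk1, a cofactor of SRF, had -0.45 ± 0.23, and Egr1, an immediate early gene under SRF, had -0.88 ± 0.42. Mural identity genes had -0.08, with 6 of 10 lower, and the ganglion cell list had -0.50, with 15 of 15 lower. Of the microglia and macrophage genes 7 of 8 were above 0 in wt_Set and 7 of 8 in myr_Set, and Cx3cr1, a receptor of microglia, differed from the shared mCherry arrays by 0.73 ± 0.19 in wt_Set and by 0.68 ± 0.19 in myr_Set. Of all 18343 clusters, 6332 were above 0 in wt_Set and 6613 in myr_Set.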

How the data were processed

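RNA of 9 samples was measured on Affymetrix Rat Gene 2.0 ST arrays after whole-transcriptome amplification, per the labels' protocols and the series' design text. RMA and Affymetrix Expression Console are named, with no version, in the submitters' processing notes. The deposited intensity values are on a linear scale and, per the design text, were normalized by the authors to the median of each sample; each array's median was 100. For the array, a genome build is not given in the sources used.

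Genes were named through the platform annotation, and only from clusters with 1 symbol (18511, against 575 with several and 17599 with none). The members and gene lists were chosen with earlier results of these data known. Named genes were all members and the 10 clusters most correlated with the members' mean. A planned rule also picked the first 3 genes per list and up to 2 of smallest unadjusted p per list and comparison. Only part of these are described, and others, such as Smad4, Tbx2, Mcam and Slc2a1, are left out. Further genes of the lists (among them most paralogs, Csrp1, Ccn1, Ccn2, Tgfb3 and Tgfbr1) were chosen after their values were seen. The summary of 1 further list is not reported here.

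Intensities were log2-transformed in R 4.3.3 and the 9 arrays fitted as group means (limma 3.58.1, functions lmFit and eBayes, two-sided, 6 residual and 2.82 prior degrees of freedom) over 18343 clusters whose mean reached 6.65. Benjamini-Hochberg adjustment ran over all of these clusters, with a threshold of 0.05. Tables and promoter searches used Python 3.11.15 with pandas 2.3.3 and numpy 2.4.6. The fit was tested on simulated data. Alternatives were quantile and cyclic loess normalization, other level filters, an offset of 50 before the log, array weights, fits of only the groups compared, a replicate block and leaving out each array. The fit without replicate 1 of all groups was run with the other scalings and on the list medians after seeing the data. Samples were grouped by the construct in the labels. Replicate numbers were checked as pairs: correlations of same-numbered arrays' deviations ran from -0.07 to 0.38 and 5 of 9 were over 0.1, so they were not treated as pairs. Precision is set by the number of arrays, since arrays have no read depth.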

Additional observations from a re-analysis of the deposited data

How the results depend on the processing

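No member passed an adjusted p of 0.05 under any alternative run. Leaving out single arrays, replicate 1 of all groups among these settings, moved wt_Set minus mCherry between -2.14 and 0.91 for Tagln, -1.91 and 0.85 for Myl9, -1.57 and 0.85 for Myl12a, -1.93 and 0.57 for Cald1, -1.29 and -0.04 for Tpm1, -1.74 and 0.55 for Tpm2, -2.02 and 1.09 for Ppp1r14a, and -1.52 and 0.57 for Pdlim5. The same ranges for myr_Set minus mCherry were -2.08 to 1.32 for Tagln, -1.91 to 1.14 for Myl9, -1.57 to 0.94 for Myl12a, -1.64 to 1.11 for Cald1, -1.41 to 0.38 for Tpm1, -1.59 to 1.07 for Tpm2, -1.76 to 1.54 for Ppp1r14a, and -1.15 to 0.81 for Pdlim5. For myr_Set minus wt_Set they were -1.46 to 1.93 for Tagln, -1.38 to 1.67 for Myl9, -1.25 to 1.34 for Myl12a, -0.91 to 1.73 for Cald1, -0.70 to 1.09 for Tpm1, -1.06 to 1.72 for Tpm2, -1.19 to 1.89 for Ppp1r14a, and -0.66 to 1.27 for Pdlim5.

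Other scalings also turned directions. Cyclic loess gave 0.017 for Ppp1r14a in wt_Set minus mCherry, and in myr_Set minus mCherry 0.38 for Pdlim5, 0.067 for Myl12a, 0.13 for Cald1 and 0.34 for Ppp1r14a, where quantile normalization gave 0.17 for Pdlim5. In myr_Set minus wt_Set quantile normalization gave -0.15 for Myl9 and -0.12 for Tpm1, and Myl12a had 0.088 with cyclic loess, 0.013 with an offset of 50 and 0.71 with array weights. Without replicate 1, cyclic loess gave 0.053 for Myl12a in wt_Set minus mCherry, 0.12 for Tpm2 and 0.0079 for Ppp1r14a in myr_Set minus mCherry, and -0.0013 for Pdlim5 in myr_Set minus wt_Set; quantile normalization gave 0.0081 for Tpm2 in myr_Set minus mCherry. With array weights, whose estimation stopped before it converged, myr_Set minus mCherry was 0.17 for Cald1, 0.12 for Ppp1r14a, 0.19 for Tagln, 0.12 for Myl9 and 0.37 for Tpm2. The cause of these changes was not tested.

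Counts of all clusters moved too. Array weights gave 5903 clusters past an adjusted p of 0.05 in myr_Set minus mCherry and 1270 in myr_Set minus wt_Set, where limma without weights gave 0. At an unadjusted p under 0.05, no level filter, a filter at the 75th percentile, single-symbol clusters and array weights gave 3043, 885, 1016 and 6279 for wt_Set minus mCherry, 2986, 842, 1010 and 8627 for myr_Set minus mCherry, and 749, 70, 37 and 4514 for myr_Set minus wt_Set; the filters and the single-symbol setting test other numbers of clusters. Fitting only the groups compared gave 4262 for wt_Set minus mCherry and 891 for myr_Set minus mCherry. Leaving out arrays gave 880 to 3862, 494 to 6141 and 182 to 833 in the 3 comparisons. Without replicate 1, quantile normalization and cyclic loess gave 515 and 558 for myr_Set minus mCherry and 945 and 813 for myr_Set minus wt_Set.

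With the replicate number as a block, 0 clusters passed an adjusted p of 0.05 in any comparison, and 1937 had an unadjusted p under 0.05 in wt_Set minus mCherry, 1754 in myr_Set minus mCherry and 251 in myr_Set minus wt_Set. In that fit the standard errors of the 8 genes in wt_Set minus mCherry ran from 0.18 to 0.34, and Cald1 had -0.62 ± 0.22 (limma unadjusted p = 0.0253) and Pdlim5 -0.46 ± 0.18 (limma unadjusted p = 0.0398), both with an adjusted p of 0.428. The block changed no call. In 9 of 18 comparisons of an array with the 3 arrays of another group, the best of the 3 correlations was with its own number.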
